A study of Homo sapiens with 11 samples.

Results

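Genes of the ATF4 pathway and of the unfolded protein response were followed in MDA-MB-468 cells, a triple-negative human breast cancer line that came from a pleural effusion. The set was a list of 39 genes given by name. A gene was used where a probe set of the array was annotated with that gene symbol alone, and the probe set of highest mean stood for a gene with several. This gave 37 of the 39 genes, among the 22395 genes of the array that could be matched this way. ATF5 and HSP90B1 were not analysed here, because the annotation gives their probe sets a second symbol. The 37 genes were grouped as 12 of the ATF4 amino acid branch, 10 of the endoplasmic reticulum (ER) chaperone branch and 15 others, namely 3 stress sensors, 5 transcription factors and 7 stress effectors.

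Cells had been exposed for 24 h to tumour necrosis factor (TNF, 40 ng/ml) with apigenin (40 µM), to TNF alone (40 ng/ml), to apigenin alone (40 µM), or to neither. TNF is an inflammatory cytokine, and apigenin is a flavone found in parsley, celery and chamomile. All 4 groups were the same cell line in high-glucose medium with serum, and the labels describe both concentrations as sub-lethal. RNA was hybridised to Human Gene 2.1 ST arrays, 3 for TNF plus apigenin, 3 for TNF, 2 for apigenin and 3 for control. The labels do not say that replicates came from separate cultures, so the spread behind each p-value is that between these arrays and may be technical. In RNA of whole cultures, fewer responding cells and less RNA per cell cannot be told apart.

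ER stress and amino acid shortage are both read by kinases that phosphorylate the translation factor eIF2 alpha, which slows protein synthesis while letting ATF4 messenger RNA be translated. ATF4 protein then switches on genes for amino acid synthesis, uptake and tRNA charging. The ER branches run through IRE1, which splices XBP1 messenger RNA, and ATF6, which is cut to release a transcription factor. Both raise chaperones and degradation factors of the ER. ATF4 and XBP1 are thus controlled largely after transcription, at steps that these probe sets do not read.

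Promoter windows from RefSeq (GRCh38.p14, 250 bases before to 50 after the gene's start) are printed for 5 genes, 2 that rose in the comparisons below (CTH and STC2) and 3 that carry the elements of the pathway (ASNS, HSPA5 and HERPUD1). Each is given 5′ to 3′ on the gene's strand. Capitals mark the fixed letters of motif matches.
CTH, chr1:70411018-70411317, plus strand: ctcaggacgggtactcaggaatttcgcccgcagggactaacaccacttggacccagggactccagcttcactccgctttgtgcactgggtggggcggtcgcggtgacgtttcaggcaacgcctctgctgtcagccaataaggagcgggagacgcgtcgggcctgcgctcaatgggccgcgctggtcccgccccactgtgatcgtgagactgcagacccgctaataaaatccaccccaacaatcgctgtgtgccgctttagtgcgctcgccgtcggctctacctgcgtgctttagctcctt
STC2, chr5:173328365-173328664, minus strand: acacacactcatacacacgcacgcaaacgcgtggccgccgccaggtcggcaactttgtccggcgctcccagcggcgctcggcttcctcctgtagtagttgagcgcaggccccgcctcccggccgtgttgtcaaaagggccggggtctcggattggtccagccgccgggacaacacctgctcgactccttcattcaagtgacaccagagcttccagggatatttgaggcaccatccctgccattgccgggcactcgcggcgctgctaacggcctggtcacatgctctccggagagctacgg
ASNS, chr7:97872359-97872658, minus strand: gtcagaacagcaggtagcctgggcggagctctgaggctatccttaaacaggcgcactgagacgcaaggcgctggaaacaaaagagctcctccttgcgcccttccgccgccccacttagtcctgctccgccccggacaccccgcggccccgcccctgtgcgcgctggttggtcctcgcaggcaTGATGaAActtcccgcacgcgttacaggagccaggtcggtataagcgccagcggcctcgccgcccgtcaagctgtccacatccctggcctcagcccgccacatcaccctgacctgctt
HSPA5, chr9:125241294-125241593, minus strand: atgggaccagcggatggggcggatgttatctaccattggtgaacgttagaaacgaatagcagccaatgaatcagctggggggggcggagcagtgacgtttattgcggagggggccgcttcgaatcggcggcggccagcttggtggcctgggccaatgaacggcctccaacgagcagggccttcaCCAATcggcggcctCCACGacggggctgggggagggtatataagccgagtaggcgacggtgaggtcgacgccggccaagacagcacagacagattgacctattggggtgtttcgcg
HERPUD1, chr16:56931892-56932191, plus strand: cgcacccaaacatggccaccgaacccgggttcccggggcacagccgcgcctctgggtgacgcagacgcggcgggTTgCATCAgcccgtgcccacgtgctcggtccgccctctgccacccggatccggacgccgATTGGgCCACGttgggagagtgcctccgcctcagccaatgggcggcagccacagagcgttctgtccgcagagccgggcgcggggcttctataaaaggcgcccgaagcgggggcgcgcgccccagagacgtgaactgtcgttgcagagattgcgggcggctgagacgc
The motifs searched on both strands were TGATGNAAN for the composite element bound by ATF4 with a C/EBP partner, CCAAT, any 9 bases and CCACG for the ER stress element, ATTGG, any base and CCACG for its variant, and TGACGTGG for the XBP1 element. Matches that overlap were not removed. A match describes letters in the window and is not evidence of binding.

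Of the 39 genes, 36 had a promoter in the table. The ATF4 composite motif was found in 4 of the 36 (11.1%), against 3.67% of all 27305 promoters. These were ASNS, at bases -68 to -60 with the start counted as 0, CHAC1 at -210 to -202, AARS1 at -188 to -180 and HERPUD1 at -177 to -169. The ER stress element was found in 4 of the 36 (11.1%), against 0.0806% of all promoters. They were HSPA5 at -66 to -48, XBP1 at -52 to -34, CALR at -225 to -207 and, with 2 matches, HSP90B1. The variant element was in SDF2L1 and HERPUD1, against 0.0549% of all promoters, and HERPUD1 was the gene with matches to both the ATF4 and the ER motifs. In the amino acid branch 0 of 9 promoters matched the ER stress element, and in the ER branch 3 of 11 did. CTH and STC2 had no match to any of the 4 motifs in this window, and the XBP1 element matched 0 of the 36 against 0.795% of all promoters.

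Values are log2 units as deposited, and a difference of 1 is a doubling. Array apigenin 1 stood apart, with a median over the tested genes of 3.89, against 4.08 to 4.32 on the other 10 arrays. Its values were also narrower, with an interquartile range of 2.4 against 2.63 to 2.91 on the others. The median change over all 15865 tested genes was -0.18 for apigenin against control. Over the 9261 genes kept by a stricter filter on low values it was -0.27, and 36 members were among these. The shift thus differed with the brightness of the genes, and every change of a member in that comparison is to be read against both values. For TNF plus apigenin against apigenin these 2 medians were 0.16 and 0.26. For the interaction, defined below, they were 0.23 and 0.30. Changes of members there are to be read in the same way. All 7 epithelial markers (EGFR, EPCAM, CDH1, KRT19, KRT7, KRT18 and KRT8) exceeded 2.53, which was the median over probe set means, with averages of 4.18 for KRT8 to 10.79 for EGFR, and ESR1 and PGR lay below it. Of 16 markers of macrophages, fibroblasts, endothelium and lymphocytes, 11 lay below that median, and the average of all 16 was 2.36 to 2.50 in the 4 groups. Those above it were CSF1R (4.27, beside 4.18 for KRT8), KDR (3.76), CDH5 (3.44), COL1A1 (3.34) and MARCO (2.66). A value above that median thus did not separate the cell types. The 4 endothelial markers averaged 2.33 with apigenin to 3.18 with TNF, and 2 of them exceeded that median. CDH5 averaged 3.13 with TNF plus apigenin, 4.38 with TNF, 2.43 with apigenin and 3.46 in control. KDR averaged 3.44 with TNF plus apigenin, 4.18 with TNF, 2.91 with apigenin and 4.23 in control. Their part in the results was not tested. All 37 members passed the filter on low values, and all but DDIT3 lay at or above 2.53 on every array. Levels of members were not compared with each other, because probe sets differ in brightness.

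Across the 37 genes, TNF plus apigenin against control had 2 that rose, CTH and STC2, and none that fell, where 2.82% of all genes passed. At an unadjusted p under 0.05 there were 8 above and 1 below, where 15.9% of all genes passed. TNF plus apigenin against TNF had 1 that rose, CTH, where 1.07% of all genes passed, and 5 above and 1 below at an unadjusted p under 0.05, where 11.1% did. These counts are close to what the shares over all genes give for 37 genes. For apigenin against control 0 of 37 passed in limma, where 3.66% of all genes did, with 2 above at an unadjusted p under 0.05 (CTH and STC2), where 19.5% of all genes passed. For TNF against control 0 of 37 passed, where 0.7% of all genes did, with 1 above (STC2) and 2 below (TRIB3 and PHGDH) at an unadjusted p under 0.05, where 7.41% did. For TNF plus apigenin against apigenin 0 of 37 passed, where 0.574% of all genes did, with PPP1R15A and DNAJC3 above at an unadjusted p under 0.05, where 15.7% did. The comparisons share arrays, and their values are given side by side and not correlated.

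**Figure D1:**
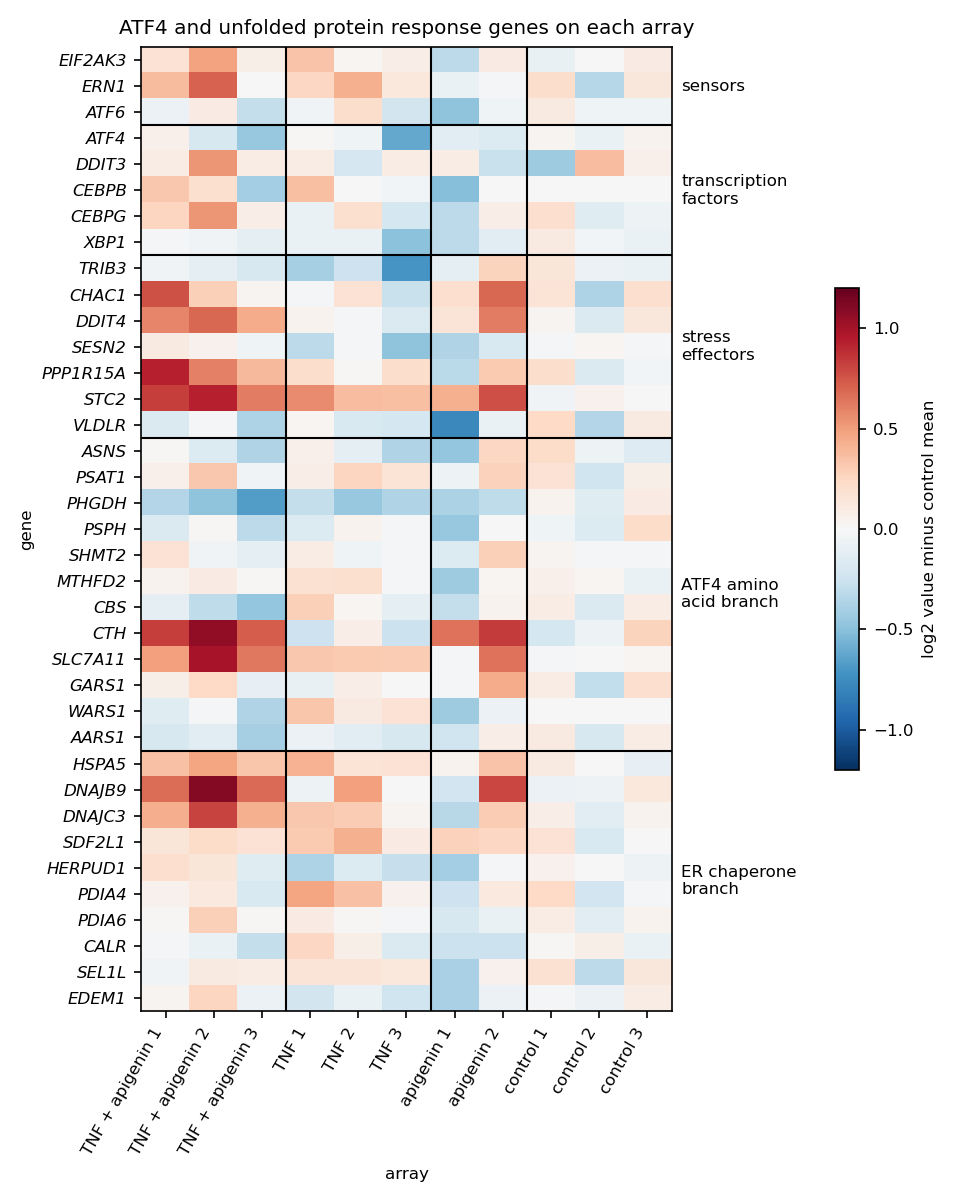
Each cell shows, by colour, the log2 value of a member on 1 array minus the mean of the 3 control arrays, with genes in rows ordered by role and arrays in columns by group. CTH and STC2 are higher on all TNF plus apigenin arrays than on all control arrays, while ATF4 and ASNS show no such block of colour.

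The pathway's 3 sensors did not pass in any comparison. EIF2AK3, the ER-resident eIF2 alpha kinase PERK, differed by 0.24 ± 0.18 (SE) between TNF plus apigenin and control, with a 95% interval of -0.15 to 0.63. ERN1, which encodes IRE1, differed by 0.36 ± 0.21 (-0.08 to 0.81), and its values were 4.32, 4.65 and 3.94 with TNF plus apigenin and 4.15, 3.6 and 4.08 in control. Between TNF and control ERN1 differed by 0.27 ± 0.21. ATF6, the membrane-bound factor, differed by -0.09 ± 0.18. Over the comparisons of 2 groups the intervals reach changes of up to 0.90 on the log2 scale (ERN1, TNF plus apigenin against apigenin), so these arrays do not exclude moderate changes in the sensors.

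ATF4, the factor after which the pathway is named, did not pass in any comparison. It lay at 8.69, 8.44 and 8.18 with TNF plus apigenin, at 8.65, 8.58 and 8.02 with TNF, at 8.51 and 8.47 with apigenin, and at 8.67, 8.55 and 8.68 in control. TNF 3 and TNF plus apigenin 3 were the lowest, and TNF 1, TNF 2 and TNF plus apigenin 1 lay beside the control values. TNF plus apigenin against control gave -0.20 ± 0.20 (95% interval -0.62 to 0.22), and TNF plus apigenin against TNF gave 0.02 ± 0.20. Apigenin against control gave -0.15 ± 0.22, beside a median of -0.18 over all genes and -0.27 over those kept by the stricter filter. Both groups were free of overlap, with apigenin lower, which held for 26.9% of all genes.

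DDIT3, which encodes the pro-apoptotic factor CHOP, was near background. It lay at 2.83, 3.27 and 2.83 with TNF plus apigenin, at 2.83, 2.54 and 2.83 with TNF, at 2.83 and 2.48 with apigenin, and at 2.32, 3.11 and 2.80 in control, and all 4 groups overlapped. Its second probe set averaged 1.62, below the median, against 2.79 for the one used. TNF plus apigenin against control gave DDIT3 a log2 change of 0.23 ± 0.22, which did not pass, and no fold is given, since a change at this level depends on the background. XBP1, the ER branch factor, lay at 7.30, 7.27 and 7.19 with TNF plus apigenin, at 7.23, 7.23 and 6.82 with TNF, at 7.0 and 7.17 with apigenin, and at 7.42, 7.28 and 7.23 in control. It differed by -0.06 ± 0.17 between TNF plus apigenin and control (-0.41 to 0.30). CEBPB and CEBPG, C/EBP family partners of ATF4, differed by 0.04 ± 0.21 and 0.29 ± 0.19 in that comparison, and neither passed. CEBPG differed by 0.41 ± 0.21 between TNF plus apigenin and apigenin (adjusted p = 0.362), and CEBPB by -0.07 ± 0.21 between TNF plus apigenin and TNF.

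Among the 7 stress effectors, STC2 rose. STC2 encodes stanniocalcin 2, a secreted glycoprotein known as a target of ER stress. It lay at 7.46, 7.56 and 7.24 with TNF plus apigenin, at 7.19, 7.0 and 6.99 with TNF, at 7.05 and 7.40 with apigenin, and at 6.58, 6.68 and 6.62 in control. The 3 control arrays were the lowest of the 11, and each treated array lay above all of them. Taken 1 comparison at a time, 8.69% of all genes lay above control without overlap with TNF plus apigenin, 4.62% with TNF and 4.69% with apigenin. The share of all genes for these together was not computed. TNF plus apigenin averaged 7.42 ± 0.16 against 6.63 ± 0.05 in control (SD, n = 3 each), a rise of 0.80 ± 0.17 (SE) or 1.74-fold (limma, adjusted p = 0.0171). The call was lost in 4 of 11 fits that left out an array (control 1, control 3, TNF plus apigenin 1 or TNF plus apigenin 2), where the rise ranged from 0.73 to 0.88 and the adjusted p reached 0.0933. The difference was 0.43 ± 0.17 for TNF against control (adjusted p = 0.481) and 0.60 ± 0.19 for apigenin against control (adjusted p = 0.0905), and neither passed. The interaction, the difference that TNF made in apigenin-treated cells less that in untreated cells, was -0.24 ± 0.25 for STC2 (95% interval -0.77 to 0.30).

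DDIT4, which encodes REDD1, an inhibitor of mTORC1, lay at 7.47, 7.57 and 7.33 with TNF plus apigenin, at 6.93, 6.86 and 6.71 with TNF, at 7.04 and 7.50 with apigenin, and at 6.92, 6.71 and 7.02 in control. All 5 arrays with apigenin lay above all 6 without it, which held for DDIT4 and CTH alone among the 37 and for 0.681% of all genes. The differences of 0.63 ± 0.18 against TNF (1.54-fold, adjusted p = 0.121) and 0.58 ± 0.18 against control (adjusted p = 0.0984) did not pass. With quantile normalization, with a median shift of each array and with array weights, DDIT4 passed in both of these comparisons. PPP1R15A encodes GADD34, which directs a phosphatase to eIF2 alpha and restores translation. It lay at 6.09, 5.76 and 5.55 with TNF plus apigenin, at 5.37, 5.17 and 5.37 with TNF, at 4.83 and 5.47 with apigenin, and at 5.37, 4.98 and 5.12 in control. The TNF plus apigenin arrays were the 3 highest, a pattern whose share of all genes was not computed. The PPP1R15A difference of 0.64 ± 0.20 against control (1.56-fold, adjusted p = 0.118) did not pass. Against TNF it was 0.50 ± 0.20 (adjusted p = 0.357) and against apigenin 0.64 ± 0.23 (adjusted p = 0.201).

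The other 4 effectors did not pass in any comparison either. TRIB3, a pseudokinase that restrains ATF4 and CHOP, had its lowest values with TNF, 6.17, 6.32 and 5.86, against 6.71, 6.5 and 6.49 in control. These groups did not overlap, and the difference of -0.45 ± 0.18 had an unadjusted p of 0.0227 and an adjusted p of 0.511. CHAC1, a glutathione-degrading enzyme, differed by 0.45 ± 0.26 between apigenin and control, SESN2, a leucine-sensing inhibitor of mTORC1, by -0.27 ± 0.19 and VLDLR, a lipoprotein receptor, by -0.43 ± 0.24. Between TNF plus apigenin and apigenin TRIB3 differed by -0.19 ± 0.20 and CHAC1 by -0.09 ± 0.26, and SESN2 differed by -0.27 ± 0.17 between TNF and control. VLDLR differed by -0.19 ± 0.21 between TNF plus apigenin and control and by -0.07 ± 0.21 between TNF plus apigenin and TNF. For SESN2 the interaction was 0.58 ± 0.25 (unadjusted p = 0.0354, adjusted p = 0.603), where the median of all genes was 0.23. For PPP1R15A it was 0.50 ± 0.31 and for CHAC1 -0.05 ± 0.34. With HERPUD1 (0.55 ± 0.25) SESN2 made 2 of 37 at an unadjusted p under 0.05 in the interaction, where 8.16% of all genes passed, and in limma 0 of 37 had an adjusted p under 0.05, where 0.0252% did.

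**Figure D2:**
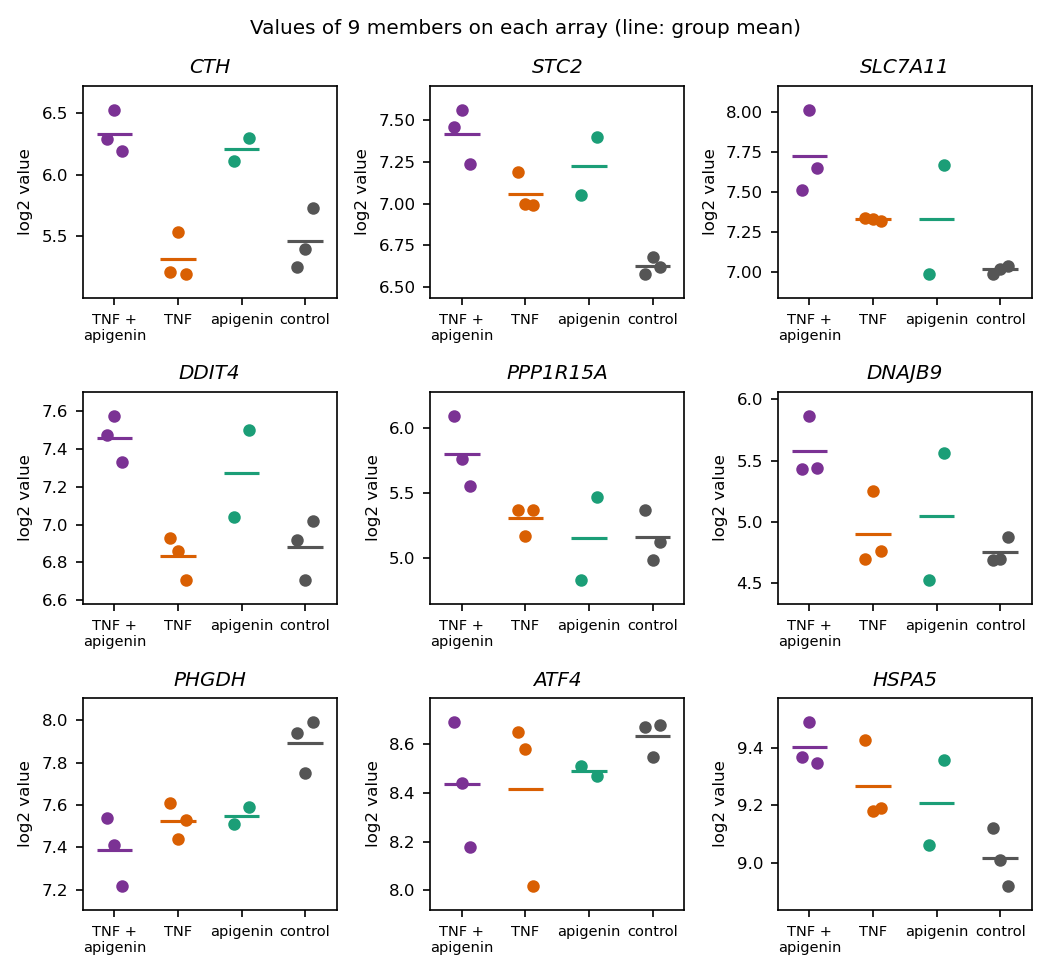
Log2 values on every array (points) and group means (horizontal lines) are plotted for 9 members, with groups along the horizontal axis. CTH is at 6.11 or above on the 5 arrays with apigenin and at 5.73 or below on the 6 without. The ATF4 groups overlap, except that both apigenin arrays lie below all control arrays.

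In the amino acid branch 1 of the 12 genes rose and none fell in TNF plus apigenin against control, where 2.82% of all genes passed, and the same count held against TNF, where 1.07% did. The gene was CTH in both, which encodes cystathionine gamma-lyase, the enzyme that completes transsulfuration from methionine to cysteine. CTH lay at 6.29, 6.52 and 6.19 with TNF plus apigenin, at 5.21, 5.54 and 5.20 with TNF, at 6.11 and 6.30 with apigenin, and at 5.25, 5.40 and 5.73 in control. The arrays with apigenin and those without it formed non-overlapping ranges, from 6.11 up and from 5.73 down. Against TNF the rise was 1.02 ± 0.18 or 2.02-fold (limma, adjusted p = 0.0115), and against control it was 0.87 ± 0.18 or 1.83-fold (adjusted p = 0.0172). CTH averaged 6.33 ± 0.17 with TNF plus apigenin, 5.32 ± 0.19 with TNF, 6.21 ± 0.14 with apigenin and 5.46 ± 0.25 in control (SD, n = 3, 3, 2 and 3).

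The apigenin arrays gave CTH a difference from control of 0.75 ± 0.20 (1.68-fold, adjusted p = 0.0581), just short of the threshold, and TNF alone gave -0.14 ± 0.18. The interaction was 0.27 ± 0.27, with a 95% interval of -0.32 to 0.85, beside a median of 0.23 over all genes. The size of the apigenin difference with and without TNF was thus not distinguishable here. Leaving out 1 array ended the CTH call against control in 3 of 11 fits (without control 1, control 2 or TNF plus apigenin 2), with a rise of 0.77 to 1.01 and an adjusted p of up to 0.1. Against TNF it ended in 3 of 11 fits (without TNF 1, TNF 3 or TNF plus apigenin 2), with a rise of 0.92 to 1.13 and an adjusted p of up to 0.0734. Without the 3 arrays of lowest median, a choice made after seeing the data, the rise against control was 0.91 and the adjusted p was 0.0751.

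The neighbouring genes of cysteine metabolism gave other values. SLC7A11, the cystine importer subunit xCT, lay at 7.51, 8.01 and 7.65 with TNF plus apigenin, at 7.34, 7.33 and 7.32 with TNF, at 6.99 and 7.67 with apigenin, and at 6.99, 7.02 and 7.04 in control. The 3 TNF plus apigenin arrays lay above all TNF and all control arrays, while apigenin 1 lay with control and apigenin 2 within the range of TNF plus apigenin. The difference from control, 0.71 ± 0.19 (1.63-fold, adjusted p = 0.0699), did not pass, and it passed under the stricter filter on low values (adjusted p = 0.0469). It was 0.40 ± 0.19 against TNF and 0.40 ± 0.22 against apigenin, and TNF and apigenin alone each gave 0.31 against control (SE 0.19 and 0.22). CBS, which makes the cystathionine that CTH cleaves, differed by -0.29 ± 0.18 from control and -0.36 ± 0.18 from TNF, and neither passed. Against apigenin CBS gave -0.17 ± 0.20, and its interaction was -0.24 ± 0.27.

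ASNS, asparagine synthetase and the textbook ATF4 target, lay at 6.40, 6.22 and 6.02 with TNF plus apigenin, at 6.44, 6.28 and 6.02 with TNF, at 5.92 and 6.63 with apigenin, and at 6.60, 6.32 and 6.23 in control. All groups overlapped, and the 2 apigenin arrays were the lowest and the highest of the 11. TNF plus apigenin against control gave -0.17 ± 0.21 (95% interval -0.61 to 0.27), so a rise of the size seen for CTH lies outside the interval. PHGDH, the entry enzyme of serine synthesis, had 7.54, 7.41 and 7.22 with TNF plus apigenin, 7.61, 7.44 and 7.53 with TNF, 7.51 and 7.59 with apigenin, and 7.94, 7.75 and 7.99 in control. Each treated array lay below all 3 control arrays. Taken 1 comparison at a time, 11.4% of all genes lay below control without overlap with TNF plus apigenin, 8.72% with TNF and 26.9% with apigenin. The share of all genes for these together was not computed. The PHGDH difference from control for TNF plus apigenin was -0.51 ± 0.16 (adjusted p = 0.117) and for TNF -0.37 ± 0.16 (adjusted p = 0.618), and neither passed. For apigenin against control it was -0.35 ± 0.18, and the interaction was 0.21 ± 0.24.

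The later serine enzymes PSAT1 and PSPH differed by 0.12 ± 0.18 and -0.16 ± 0.18 between TNF plus apigenin and control. SHMT2 and MTHFD2, which pass serine carbon into mitochondrial folate, differed by 0.01 ± 0.17 and 0.06 ± 0.17. The interaction of PSAT1 was -0.16 ± 0.27, and MTHFD2 differed by 0.25 ± 0.19 between TNF plus apigenin and apigenin. The tRNA synthetases differed by 0.07 ± 0.19 for GARS1 (glycine), -0.24 ± 0.17 for AARS1 (alanine) and -0.18 ± 0.17 for WARS1 (tryptophan), and AARS1 by -0.16 ± 0.19 between TNF plus apigenin and apigenin. WARS1, which is also known as an interferon-responsive gene, lay at 5.17, 5.29 and 4.95 with TNF plus apigenin, at 5.65, 5.42 and 5.49 with TNF, at 4.89 and 5.24 with apigenin, and at 5.31, 5.31 and 5.32 in control. All 5 arrays with apigenin lay below all 6 without, which held for 2.82% of all genes. The difference between TNF plus apigenin and TNF, -0.39 ± 0.17 (adjusted p = 0.395), did not pass. WARS1 gave 0.20 ± 0.17 for TNF against control and -0.25 ± 0.19 for apigenin against control.

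In the ER chaperone branch none of the 10 genes passed in any of the 5 comparisons, where 0.574% to 3.66% of all genes did, shares that give a count near 0 for 10 genes. After quantile normalization HSPA5, DNAJB9 and DNAJC3 passed in TNF plus apigenin against control, where 7.77% of all genes did. HSPA5, the master ER chaperone BiP, lay at 9.37, 9.49 and 9.35 with TNF plus apigenin, at 9.43, 9.18 and 9.19 with TNF, at 9.06 and 9.36 with apigenin, and at 9.12, 9.01 and 8.92 in control. The TNF plus apigenin arrays lay above all control arrays, by 0.39 ± 0.16 on average (1.31-fold, 95% interval 0.04 to 0.73, adjusted p = 0.257). At an unadjusted p under 0.05 the count was 3 of 10 in that comparison, for HSPA5, DNAJB9 and DNAJC3, the share over all genes at that threshold being the 15.9% above. DNAJB9, the HSPA5 co-chaperone ERdj4, lay at 5.43, 5.86 and 5.44 with TNF plus apigenin, at 4.70, 5.25 and 4.76 with TNF, at 4.53 and 5.56 with apigenin, and at 4.69, 4.70 and 4.88 in control. The TNF plus apigenin arrays lay above all TNF and control arrays, and apigenin 1 and apigenin 2 lay on either side of the control range. The difference from control was 0.82 ± 0.24 (1.76-fold, adjusted p = 0.0923, and 0.0383 with the 2 groups fitted alone), that from TNF 0.67 ± 0.24 (adjusted p = 0.29) and that from apigenin 0.53 ± 0.27, and apigenin against control gave 0.28 ± 0.27. DNAJC3, the co-chaperone P58IPK, lay at 8.32, 8.69 and 8.31 with TNF plus apigenin, at 8.21, 8.19 and 7.92 with TNF, at 7.55 and 8.19 with apigenin, and at 7.96, 7.76 and 7.93 in control. Its 3 TNF plus apigenin arrays were the highest of the 11, a pattern whose share of all genes was not computed. The DNAJC3 difference from control was 0.56 ± 0.19 (adjusted p = 0.157) and from apigenin 0.57 ± 0.22 (adjusted p = 0.229).

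The other 7 ER genes gave changes between -0.13 and 0.18 in TNF plus apigenin against control. The protein disulfide isomerases PDIA4 and PDIA6 gave -0.01 ± 0.19 and 0.10 ± 0.16, and the lectin chaperone gene CALR gave -0.13 ± 0.17. The degradation genes SEL1L, EDEM1 and HERPUD1 gave 0.05 ± 0.18, 0.08 ± 0.17 and 0.07 ± 0.17. SDF2L1, an ER luminal cofactor of chaperones, gave 0.18 ± 0.16. In the remaining comparisons these genes had the following extremes. TNF against control gave 0.29 ± 0.19 for PDIA4, 0.28 ± 0.16 for SDF2L1 and -0.18 ± 0.16 for EDEM1. Apigenin against control gave 0.27 ± 0.18 for SDF2L1, -0.26 ± 0.19 for CALR and -0.23 ± 0.18 for EDEM1. SDF2L1 was thus among the upper values and EDEM1 among the lower ones with each agent alone, although neither passed. TNF plus apigenin against TNF gave -0.30 ± 0.19 for PDIA4 and -0.18 ± 0.17 for CALR, and against apigenin it gave -0.08 ± 0.18 for SDF2L1 and 0.06 ± 0.21 for PDIA4. The interaction was 0.49 ± 0.25 for EDEM1, -0.36 ± 0.25 for SDF2L1 and -0.23 ± 0.28 for PDIA4, and none of these passed. The order of these genes thus differed between comparisons. HERPUD1, whose promoter window is printed above, lay at 7.46, 7.40 and 7.11 with TNF plus apigenin, at 6.89, 7.09 and 6.98 with TNF, at 6.85 and 7.23 with apigenin, and at 7.31, 7.26 and 7.20 in control. Its TNF arrays lay below all control arrays (-0.27 ± 0.17, adjusted p = 0.828), and its TNF plus apigenin arrays lay above all TNF arrays (0.34 ± 0.17, adjusted p = 0.49), and neither passed.

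**Figure D3:**
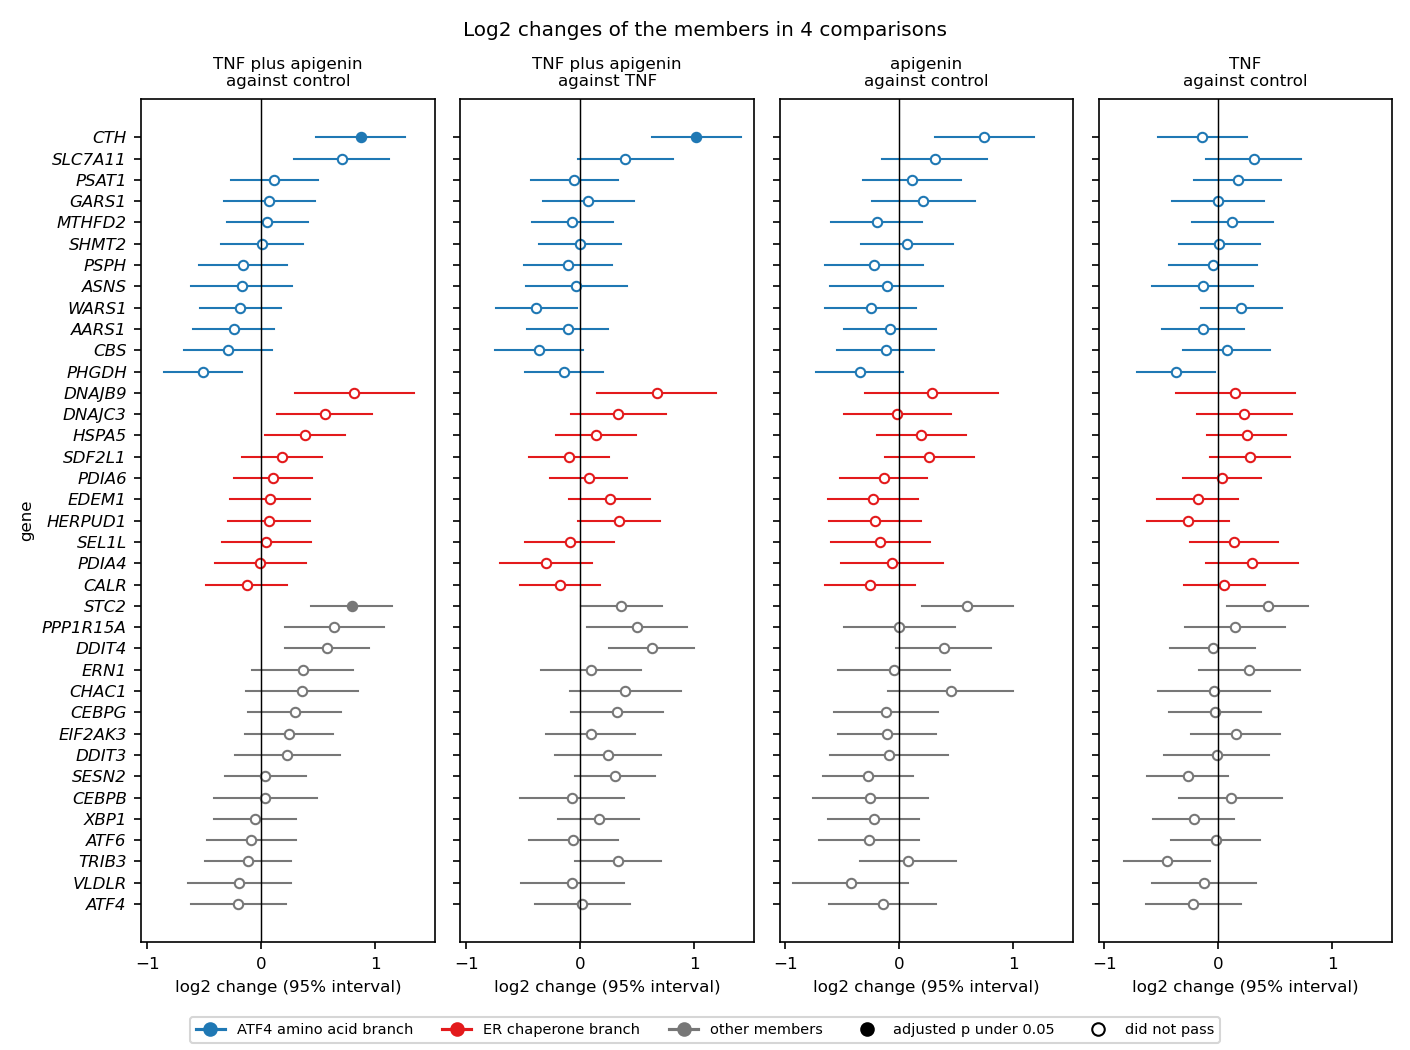
Log2 changes of the 37 members with 95% limma intervals are drawn for the comparisons named above the panels, and filled points mark an adjusted p under 0.05. CTH is filled in TNF plus apigenin against TNF (1.02), and CTH and STC2 are filled in TNF plus apigenin against control (0.87 and 0.80).

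Of the 37 members, 8 lay higher and 2 lower without overlap between arrays in TNF plus apigenin against control, where 8.69% and 11.4% of all genes did. The 8 were DDIT4, PPP1R15A, STC2, CTH, SLC7A11, HSPA5, DNAJB9 and DNAJC3, and the 2 were PHGDH and WARS1. In TNF plus apigenin against TNF 10 lay higher and 2 lower (8.62% and 7.05% of all genes). In TNF plus apigenin against apigenin 7 lay higher and 1 lower (20.9% and 4.79%), close to the background for the higher ones. For TNF against control the counts were 4 and 4 (4.62% and 8.72%), and for apigenin against control 4 and 7 (4.69% and 26.9%).

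With the arrays rescaled or weighted, more members passed in TNF plus apigenin against control, and so did more of all genes. Quantile normalization called 8 (DDIT4, PPP1R15A, STC2, CTH, SLC7A11, HSPA5, DNAJB9 and DNAJC3), where 7.77% of all genes passed, against 2.82% on the deposited values. A median shift of each array, and array weights, each called 7 of these, all but HSPA5, and also PHGDH, which was lower, where 6.29% and 7.54% of all genes passed. For apigenin against control quantile normalization called 4 (CHAC1, DDIT4, STC2 and CTH), where 3.75% of all genes passed, and the median shift 3 (DDIT4, STC2 and CTH), where 3.18% did, against 0 members and 3.66% of all genes on the deposited values. Array weights called 0 members for apigenin against control, where 1.3% of all genes passed. The median of the 37 changes in that comparison was -0.11 on the deposited values, 0.16 after quantile normalization and 0.10 after the median shift, so its sign depends on the scaling.

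The median change over the 12 genes of the amino acid branch was -0.07 in TNF plus apigenin against control, and over the 10 genes of the ER branch it was 0.09, beside -0.03 over all genes. For TNF against control these medians were 0.01 and 0.14, beside -0.04 over all genes, and for apigenin against control they were -0.10 and -0.10, beside -0.18. For TNF plus apigenin against TNF they were -0.06 and 0.11, beside 0.02. For TNF plus apigenin against apigenin they were -0.03 and 0.23, beside 0.16 over all genes and 0.26 over those kept by the stricter filter. In the amino acid branch 6 of 12 changes were above 0 in TNF plus apigenin against control, and in the ER branch 8 of 10 were.

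The branches were also set against each other within each array, where a shift that is equal for all genes cancels. For each gene the mean of the control arrays was subtracted, and the median of the ER genes was taken from that of the amino acid genes. This branch difference was -0.07, -0.25 and -0.26 with TNF plus apigenin, -0.13, -0.09 and -0.05 with TNF, -0.01 and 0.07 with apigenin, and -0.03, -0.01 and 0.06 in control. The group means were -0.19 ± 0.11 with TNF plus apigenin, -0.09 ± 0.04 with TNF, 0.03 ± 0.06 with apigenin and 0.01 ± 0.04 in control (SD). All 6 arrays with TNF lay below all 5 arrays without it, by a margin smaller than the spread within groups, and this is a description with no test. Relative to control the amino acid genes thus lay below the ER genes by 0.20 with TNF plus apigenin and by 0.10 with TNF, with a pooled SD between arrays of 0.07. The TNF plus apigenin and TNF arrays overlapped, and apigenin and control arrays overlapped. Within each branch, pairs of genes had a median correlation of 0.40 (amino acid) and 0.41 (ER) over the 11 arrays, against 0.31 between branches, and all of these share the arrays' differences in scale.

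**Figure D4:**
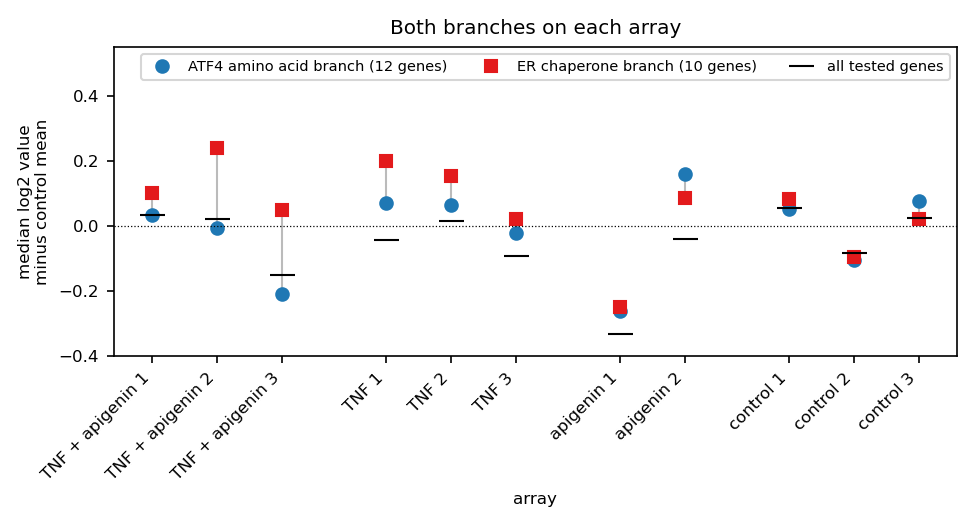
The median log2 change from the control mean over the 12 amino acid and the 10 ER chaperone genes is plotted for each array, joined by a grey line, with the median over all tested genes as a black tick. The amino acid value minus the ER value is lowest with TNF plus apigenin (mean -0.19) and lies near 0 with apigenin (0.03) and in control (0.01).

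Beyond the members, 94 further genes of the same pathways were listed, of which 84 could be tested. In TNF plus apigenin against control 2 rose and 2 fell, and 80 did not pass, where 2.82% of all genes passed. In limma 0 of 84 passed for TNF against control, where 0.7% of all genes did, with 4 above and 2 below at an unadjusted p under 0.05, where 7.41% did. For apigenin against control 0 of 84 passed (3.66% of all genes), with 4 above and 6 below at the unadjusted threshold (19.5%). For TNF plus apigenin against TNF 0 passed (1.07%), with 5 above and 5 below at the unadjusted threshold (11.1%). For TNF plus apigenin against apigenin 0 passed (0.574%), with 9 above and 2 below at the unadjusted threshold (15.7%). In the interaction 0 passed (0.0252%), with 0 above and 1 below at the unadjusted threshold (8.16%). Those that rose were the ER chaperone genes HSPA13, an HSP70 relative of the ER, by 1.12 ± 0.17 (2.17-fold, adjusted p = 0.00217), and DNAJB11, the HSPA5 co-chaperone ERdj3, by 0.73 ± 0.18 (1.66-fold, adjusted p = 0.0383). The other ER chaperones and folding enzymes thus had 2 of 15 that rose, where 2.82% of all genes passed in either direction. The lists were chosen with earlier results of these data known. Those that fell were NUPR1, a stress-responsive chromatin protein and ATF4 target, by 1.04 ± 0.21 (adjusted p = 0.0137), and SLC1A5, the glutamine transporter ASCT2, by 0.71 ± 0.18 (adjusted p = 0.049). NUPR1 was 1 of 15 tested genes of the other ATF4 pathway genes, and SLC1A5 1 of 7 tested amino acid transporters. HSPA13 averaged 8.76 with TNF plus apigenin, 8.12 with TNF, 8.21 with apigenin and 7.64 in control. The HSPA13 call held in all 11 fits that left out an array, with an adjusted p of up to 0.019. The NUPR1 call was lost in 3 of them (without control 3, TNF plus apigenin 2 or TNF plus apigenin 3, adjusted p up to 0.0583). The SLC1A5 call was lost in 7 (with any single control or TNF plus apigenin array, or TNF 2, left out, up to 0.168), and the DNAJB11 call in 9 (with any single control, TNF or TNF plus apigenin array left out, up to 0.136). Without the 3 arrays of lowest median the NUPR1 and SLC1A5 calls were also lost (adjusted p = 0.102 and 0.184). The SLC1A5 call was lost with no filter on low values as well (0.0571), and the DNAJB11 call with the replicate number as a block (0.057).

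The tested genes whose values were most like those of ATF4 over the 11 arrays were NUCB1 (Pearson r 0.93), MAN2B2 (0.92), RBM42 (0.92), AP2S1 (0.91) and PAXX (0.91). Among the members the highest were XBP1 (0.72), ASNS (0.58), CALR (0.58), PHGDH (0.58) and TRIB3 (0.56). CTH (-0.04) and STC2 (-0.22), the members that rose, were not among them, and SLC7A11 had the lowest value (-0.35). These correlations describe 11 arrays that share differences in scale, and carry no test.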

How the data were processed

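Gene expression was measured on 11 arrays of MDA-MB-468 cells. The deposited values are log2 probe set summaries; per the submitters' processing notes the authors used Affymetrix Expression Console. Not given in the sources used here were its version and algorithm, any normalization between arrays and the build of the annotation. That the values are on a log2 scale was read from their range, 0.38 to 12.31, and they were not rescaled.

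Of 53617 probe sets, 23871 had 1 gene symbol in the platform table, updated through RefSeq (GRCh38.p14), which gave 22395 genes. GARS, WARS and AARS were matched as GARS1, WARS1 and AARS1. Testing required 2 or more arrays with a value no lower than the median probe set mean (2.53), and 15865 genes met this. limma 3.58.1 (lmFit and eBayes, R 4.3.3) was run on all 11 arrays with a mean for each group. P-values were two-sided with Benjamini-Hochberg adjustment across the tested genes, and an adjusted p under 0.05 was called. Errors of changes are limma's standard errors, and of means standard deviations. The number of arrays limits the precision.

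The members, the branches, the further pathway lists and the tests were chosen with earlier results of these data known. Every member is accounted for. ATF4, DDIT3, XBP1, HSPA5 and ASNS were to be given on every array, and for each comparison every called member and the 2 highest and 2 lowest changes of each branch and of the other members are named. Genes outside the list were named where called, at most 3 a list. The other genes given on every array were picked after their values were seen. Alternatives were 2 rescalings, 2 filters, the mean of a gene's probe sets, array weights, a variance trend, a replicate block, fits of 2 groups alone, each array left out and, chosen after seeing the data, the 3 arrays of lowest median left out. Promoter sequences are RefSeq's.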

Additional observations from a re-analysis of the deposited data

How the results depend on the processing

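Under quantile normalization 4 members were called for apigenin alone, 8 for TNF plus apigenin against control and 2 for it against TNF, and other pathway genes called were 5, 12 and 5, where 3.75%, 7.77% and 3.21% of all genes passed, against 3.66%, 2.82% and 1.07% on the deposited values. Under the median shift of each array they were 3, 8 and 2 members and 4, 9 and 3 other pathway genes (3.18%, 6.29% and 2.85% of all genes). Array weights called 8 members and 7 other pathway genes for TNF plus apigenin against control, and 2 and 2 against TNF (7.54% and 2.46% of all genes). For apigenin alone they called 0 members (1.3% of all genes). The stricter filter called 1 member (CTH) and 1 other pathway gene for apigenin against control (7.83% of the 9261 genes it kept), and 3 members (STC2, CTH and SLC7A11) for TNF plus apigenin against control (5.81%). The 2 groups fitted alone gave 3 members (STC2, CTH and DNAJB9) for the same comparison (2.47% of all genes). Without the 3 arrays of lowest median, chosen after seeing the data, 1 member and 2 other pathway genes were called for TNF plus apigenin against control (1.53% of all genes), and the branch difference for apigenin against control was 0.107. The cause of these differences was not tested.

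Leaving out 1 array at a time, members called ranged from 0 to 4 for TNF plus apigenin against control, 0 to 1 against TNF and 0 to 1 against apigenin, where 1.3% to 3.39%, 0.536% to 1.24% and 0.113% to 3.77% of all genes passed, and other pathway genes called ranged from 1 to 4 for TNF plus apigenin against control, 0 to 1 against apigenin and 0 to 1 for apigenin against control (0.529% to 8.13% of all genes). The lowest counts of members for TNF plus apigenin against control, 0, came without control 1 and without TNF plus apigenin 2, and the highest, 4 (STC2, CTH, SLC7A11 and DNAJB9), with apigenin 1 or apigenin 2 left out. DNAJB9 was the member called against apigenin, without apigenin 2, where 3.77% of all genes passed. That leaves apigenin 1, which stood apart, as the only apigenin array, assumed to vary like the arrays of the other groups. The branch difference ranged from -0.26 to -0.165 for TNF plus apigenin against control, and from -0.019 to 0.068 for apigenin against control, where the sign turned without apigenin 2.

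Replicate numbers are shared by the groups in the titles. Deviations of 15 same-number pairs correlated by -0.24 to 0.275, with 4 over 0.1, and 6 of 11 arrays correlated best with an array of their own number. The highest value of a pair with different numbers was 0.193. These values do not settle whether the numbers pair the arrays. The main fit assumed no pairing, and a fit with the replicate number as a block was set beside it. With the replicate block 2 members were called for TNF plus apigenin against control, 1 against TNF and 0 in the other comparisons, the counts without it, and 1 other pathway gene was called for apigenin against control, against 0 without it. No called member changed direction under any alternative tried. The number of arrays, 2 or 3 a group, limits what can be resolved.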
